A study of Mus musculus with 12 samples.

Results

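Of the steroid dehydrogenases and reductases of liver, 10 genes were examined in livers with and without inhibition of the miR-29 family. They are Akr1d1, Srd5a1, Akr1c6, Akr1c14, Hsd3b2, Hsd3b3, Hsd3b5, Hsd11b1, Hsd17b6 and Hsd17b13, taken by symbol, and all 10 were among the 21705 genes of the deposited table. Each library was made from 1 female C57BL/6J mouse aged 10 to 12 weeks. By tail vein, 6 mice received saline and 6 received LNA29, a mixture of locked nucleic acids against miR-29a (20 mg/kg) and against miR-29b and miR-29c (20 mg/kg). All livers were collected on day 7 after an overnight fast. Polyadenylated RNA of whole liver was sequenced as single reads. No liver with an unrelated LNA is among the sequenced samples, so an effect of any LNA and an effect of miR-29 inhibition cannot be told apart here.

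These enzymes oxidise or reduce a single position of the steroid skeleton, and so decide whether a hormone reaches its receptor in an active form. The liver is the main site where circulating glucocorticoids, androgens and progestins are reduced at the A ring and cleared. Part of the same machinery builds bile acids from cholesterol. Akr1 enzymes are aldo-keto reductases, and Hsd enzymes are mostly short-chain dehydrogenases. In mice some of these genes are known to differ between the sexes in liver, and all the livers studied here were from females.

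The LNAs were directed at the mature miR-29 strands, whose seed (bases 2 to 8, in capitals) is the same in the family members shown here to define what was inhibited. The sequences are those of RefSeq (GRCm38.p6), and miR-29b has a second gene copy of the same mature strand in mice.
mmu-miR-29a-3p (chr6:31062673-31062694, minus strand): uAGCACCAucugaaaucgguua
mmu-miR-29b-3p (chr1:195037091-195037113, plus strand): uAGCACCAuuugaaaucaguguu
mmu-miR-29c-3p (chr1:195037600-195037621, plus strand): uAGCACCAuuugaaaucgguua
Known miR-29 targets of the extracellular matrix served to check the treatment. All 9 had a higher mean in LNA29 livers, where 61.4% of all tested genes had a lower one. Sparc, Eln, Col3a1 and Col4a2 passed an adjusted p of 0.05, which 0.16% of all tested genes passed. At an unadjusted p under 0.05, 8 of the 9 were higher, beside 1.95% of all tested genes. The exception was Col1a1, with a log2 fold change of 0.70.

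Deposited values are reads estimated per gene, divided by the upper quartile among detected genes and multiplied by 1000, so they are not corrected for transcript length. Depth on genes was 8217212 to 19062479 reads in the saline group and 7696095 to 15079236 in the LNA29 group. The medians were 12011973 and 9123470, so the LNA29 libraries tended to be shallower. The part of this in the differences of genes with few reads was not tested. One read was worth between 9.80 and 24.4 of these units, and a gene without reads was listed at 1. Albumin, the leading hepatocyte gene, took between 35.7% and 46.9% of the reads. Its share was lowest in saline replicate 49, which stood apart from the other livers, and the tested members' fold changes are therefore also given without it. In bulk liver, fewer cells of a type and less RNA per cell cannot be told apart.

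Hsd17b13 was higher in LNA29 livers, and Akr1c6, Akr1d1 and Hsd3b2 were lower. On the log scale, the mean of Hsd17b13 in LNA29 livers was 1.72 times that in saline livers, whereas Akr1c6 was at 0.594 times and Akr1d1 at 0.606 times. Akr1c14 and Hsd3b3 had smaller differences in the same direction as Akr1c6, and for Hsd11b1, Hsd17b6 and Srd5a1 the difference was within the spread between livers. Hsd3b5 was close to absent from both groups. In limma on log2(value + 1) over 12486 genes, none of the 9 tested members had a Benjamini-Hochberg adjusted p under 0.05, a threshold that 0.16% of the tested genes passed. At an unadjusted p under 0.05 limma found 1 member higher and 5 lower, while 1.95% of all tested genes were higher and 5.97% lower (7.91% in either direction). The median log2 fold change was -0.38 over the 9 members and -0.09 over all tested genes. With trimmed-mean (TMM) scaling, 3 members rather than 5 were lower at this threshold, and the lower genes were 62.3% of all genes at this threshold instead of 75.4%.

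**Figure D1:**
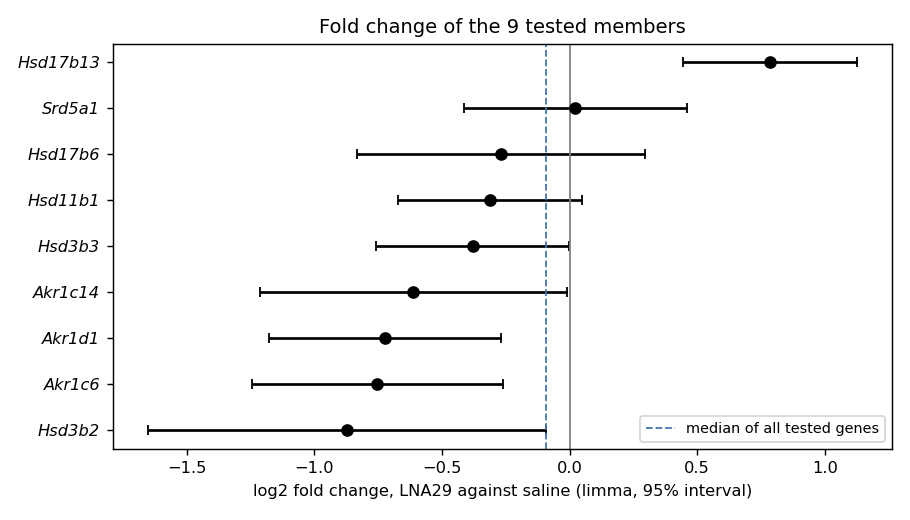
Log2 fold change of LNA29 against saline livers for the 9 tested members (points, limma on log2(value + 1)) with 95% intervals, 6 livers per group. The dashed line marks the median of all tested genes at -0.09. The interval of Hsd17b13 lies above 0, those of Hsd11b1, Hsd17b6 and Srd5a1 cross 0, and the upper ends for Akr1c14 and Hsd3b3 lie just below it.

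Hsd17b13 encodes a hydroxysteroid dehydrogenase family member that sits on the surface of lipid droplets in hepatocytes. In saline livers its values ran from 10594 to 12990 with a median of 11946. In LNA29 livers they ran from 14245 to 30098 with a median of 19453. All 6 LNA29 livers thus lay above all 6 saline livers, an arrangement found for 0.272% of the tested genes, while 0.713% had all LNA29 livers below. The means were 11845 ± 821 and 20975 ± 5639 (SD, n = 6 each), and the log2 fold change was 0.79 (standard error 0.16, 95% interval 0.44 to 1.13). The exact two-sided permutation test gave p = 0.00216, the smallest that 924 divisions of 12 livers allow. The limma adjusted p was 0.0682, and Hsd17b13 ranked 25 of 12486 genes by p.

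The saline livers were tightly grouped for this gene, with a coefficient of variation of 6.93%, the lowest of the tested members in either group. The LNA29 livers spread over 26.9%. Between 667 and 1519 reads stood behind each value, so the depth did not limit this comparison. Without saline replicate 49 the log2 fold change was 0.77 (limma adjusted p = 0.0925). The adjusted p passed 0.05 in 3 of 21 alternatives, and its range over them was 0.0322 to 0.195.

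Akr1d1 and Srd5a1 reduce the same double bond of the steroid A ring to opposite configurations. Akr1d1 is the 5β-reductase, which also acts in bile acid synthesis, and Srd5a1 is the type 1 5α-reductase, which makes dihydrotestosterone from testosterone. Akr1d1 ran from 1684 to 4400 in saline livers with a median of 2358, and from 1283 to 2050 in LNA29 livers with a median of 1500. Of the LNA29 livers, 4 lay below every saline liver and all 6 lay below the saline median. The means were 2754 ± 1084 and 1591 ± 290 (SD, n = 6 each), with a fitted log2 fold change of -0.72 (standard error 0.22, 95% interval -1.18 to -0.27). The exact permutation test gave p = 0.0130, and the limma adjusted p was 0.265. The highest saline values were those of replicates 49 and 43, and without replicate 49 the log2 fold change was -0.57 (exact permutation p = 0.0216).

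Srd5a1 ran from 625 to 1050 in saline livers (median 667) and from 566 to 1088 in LNA29 livers (median 673). The groups covered nearly the same range. Its log2 fold change was 0.02 (standard error 0.21, 95% interval -0.42 to 0.46, exact permutation p = 0.903). A change as large as that of Akr1d1 lies outside this interval, while changes between -0.42 and 0.46 lie within it. Leaving out saline replicate 49 gave 0.13.

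Within a liver, the ratio of both reductases does not depend on how a library was scaled. The log2 ratio of Akr1d1 over Srd5a1 was 1.82 ± 0.44 in saline livers, between 1.42 and 2.59. In LNA29 livers it was 1.08 ± 0.17, between 0.84 and 1.27 (SD, n = 6 each). Every LNA29 liver had a lower ratio than every saline liver, and the difference of the means was -0.74. This ratio is given as a description, without a test. How often gene pairs over the whole table separate in this way was not counted. Both genes also varied together from liver to liver (r = 0.65 after removal of the group means).

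**Figure D2:**
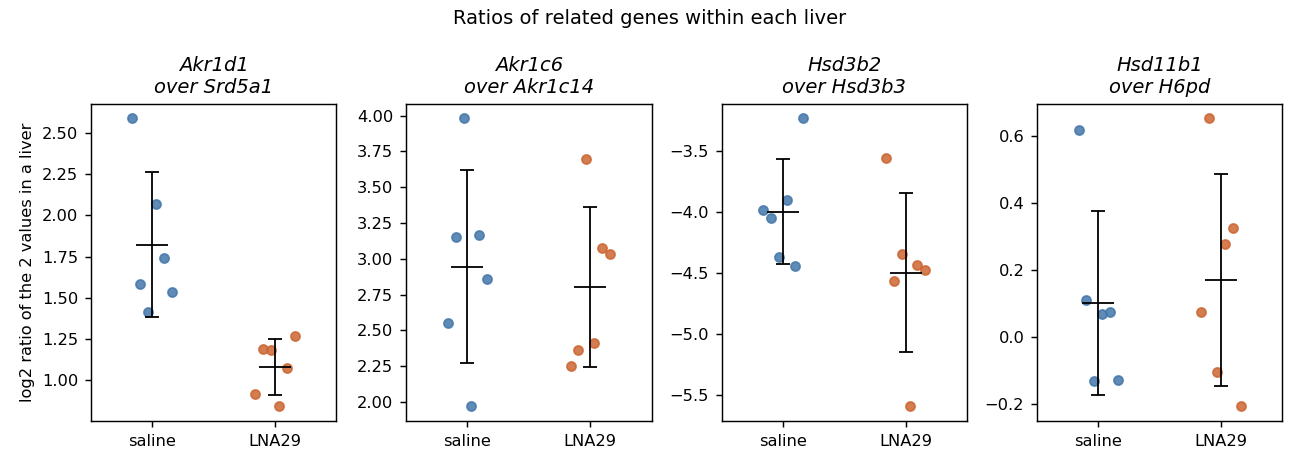
Log2 ratio of the deposited values of 2 related genes in each liver (points), with the mean and SD (bars), for 6 saline and 6 LNA29 livers and 4 gene pairs. Only for Akr1d1 over Srd5a1 do the groups of these 4 pairs not overlap, with saline livers from 1.42 to 2.59 and LNA29 livers from 0.84 to 1.27.

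Akr1c6 encodes the mouse type 5 17β-hydroxysteroid dehydrogenase, which interconverts androstenedione and testosterone. Its saline values ran from 7240 to 16563 with a median of 7705, and its LNA29 values from 3390 to 8302 with a median of 5560. Below every saline liver lay 5 of 6 LNA29 livers, and the exception was LNA29 replicate 48. The upper end of the saline group was set by replicates 43 and 47, while the other 4 saline livers lay close together. The means were 9963 ± 3996 and 5775 ± 1625 (SD, n = 6 each), with a fitted log2 fold change of -0.75 (standard error 0.23, 95% interval -1.24 to -0.26, exact permutation p = 0.0173). The limma adjusted p was 0.292. Without saline replicate 43, the highest liver, the log2 fold change was -0.59 (exact permutation p = 0.0281), and without saline replicate 49 it was -0.83.

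Akr1c14, a 3α-hydroxysteroid dehydrogenase that acts on ring-reduced steroids after the 5-reductases, was more scattered. Its saline values ran from 808 to 2828 (median 964) and its LNA29 values from 642 to 1200 (median 733). Saline replicates 43 and 49 were above all LNA29 livers, and the other 4 saline livers lay within the LNA29 range. Its log2 fold change was -0.61 (standard error 0.29, limma unadjusted p = 0.0472 and adjusted p = 0.622), and the exact permutation test gave p = 0.106. Leaving out saline replicate 43 gave -0.37 (exact permutation p = 0.197), and leaving out saline replicate 49 gave -0.49 (exact permutation p = 0.182). The ratio of Akr1c6 over Akr1c14 overlapped widely between the groups, with a difference of -0.14 on the log2 scale.

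The 3β-hydroxysteroid dehydrogenases convert pregnenolone-type steroids to their 3-keto forms. Hsd3b3 had the higher level of the 2 measurable members of this group. It ran from 2197 to 3363 in saline livers (median 2855) and from 1749 to 3471 in LNA29 livers (median 1869). Of the LNA29 livers, 4 lay below all saline livers, but LNA29 replicate 48 was the highest of all 12. The log2 fold change was -0.38 (standard error 0.18, limma unadjusted p = 0.0499 and adjusted p = 0.631, exact permutation p = 0.0758), and without saline replicate 49 it was -0.34. In 15 of 21 alternatives the unadjusted p was above 0.05.

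Hsd3b2 was a minor form with 2 to 24 reads per liver. Its values ran from 122 to 235 in saline livers (median 178) and from 38.8 to 171 in LNA29 livers (median 92.3). The lowest 4 LNA29 livers lay below all saline livers. Its log2 fold change was -0.87, with a standard error of 0.37 (exact permutation p = 0.0303, limma adjusted p = 0.556). Leaving out saline replicate 49 gave -0.82 (exact permutation p = 0.0606). Relative to Hsd3b3 in the same liver, Hsd3b2 was lower by a log2 difference of -0.50, with 3 LNA29 livers below all saline livers.

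Hsd3b5, a 3-ketosteroid reductase known for its high level in male mouse liver, had no read in any of 6 saline livers and 1 read in each of LNA29 replicates 44 and 54. Both groups were at or under the floor of 3 reads per liver, so no fold change is given. Of the paralogs outside the members, Hsd3b1 had no reads, while Hsd3b4 and Hsd3b6 had at most 1 read per liver. Hsd3b7, which acts in bile acid synthesis, had 329 to 1021 reads.

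These 3β genes lie side by side on chromosome 3 and share sequence. In GENCODE M21 (GRCm38), 14.9% of the 100-base windows of the longest coding transcript of Hsd3b3 and 7.09% of those of Hsd3b2 also occur in other genes, mostly in each other. Values of both genes were fractional in all 12 livers, which is how the estimation program divides reads between similar transcripts. The level of Hsd3b2, with so few reads, is therefore uncertain. Hsd17b6 shared 10.5% of its windows, mainly with Rdh16f1 and Rdh1, and was also fractional in all 12 livers. Srd5a1 shared 14.9% of its windows, all with the gene model Gm17108, and Akr1c14 shared 4.38% with Gm18857, while both had whole reads in all 12 livers. Hsd3b5 shared 7.79% with other genes. Hsd17b13, Akr1d1, Akr1c6 and Hsd11b1 shared no window with another gene.

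**Figure D3:**
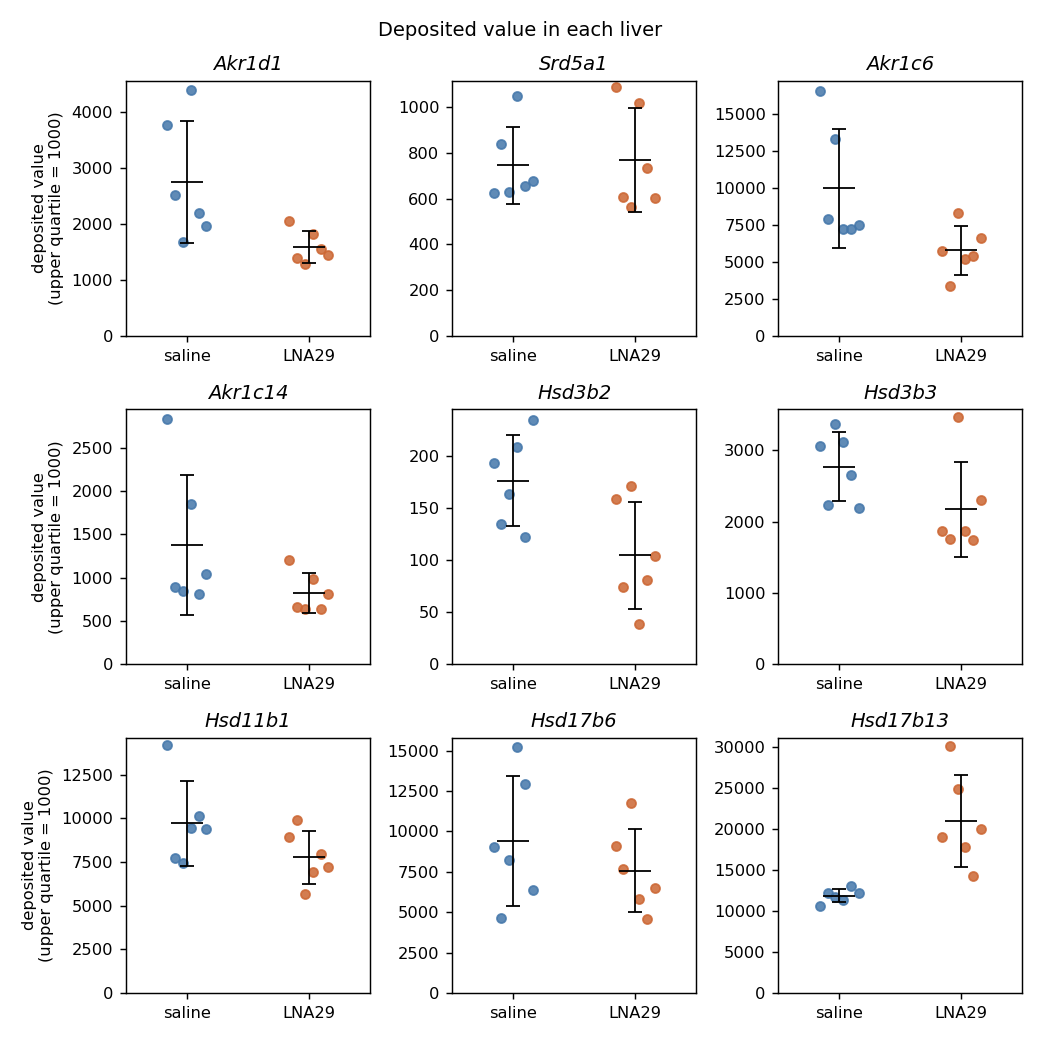
Deposited value (upper quartile of a library at 1000, linear axis from 0) in each of 6 saline and 6 LNA29 livers (points) with mean and SD (bars), for the 9 members with reads in all livers. The groups do not overlap for Hsd17b13, with saline livers at 12990 or below and LNA29 livers at 14245 or above, and the groups overlap for the other 8.

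Hsd11b1 regenerates active glucocorticoid from its 11-keto form, and depends on NADPH that H6pd makes in the endoplasmic reticulum. Hsd11b1 ran from 7439 to 14188 in saline livers (median 9421) and from 5660 to 9927 in LNA29 livers (median 7598). The groups overlapped over most of this range, and only saline replicates 43 and 51 lay above all LNA29 livers. The log2 fold change was -0.31 (standard error 0.17, 95% interval -0.67 to 0.05, exact permutation p = 0.108), without saline replicate 43 it was -0.19, and without saline replicate 49 it was -0.31. H6pd went from 8913 ± 1111 to 6897 ± 1217 (SD, n = 6 each), with a log2 fold change of -0.38 (exact permutation p = 0.0195, limma adjusted p = 0.455). The log2 ratio of Hsd11b1 over H6pd differed by 0.07 between the groups, with wide overlap.

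Hsd17b6 encodes a dehydrogenase of androgens and retinoids. It ran from 4625 to 15245 in saline livers (median 8626) and from 4581 to 11757 in LNA29 livers (median 7065). Its spread between livers of a group, 42.6% and 34.0% as coefficients of variation, was among the widest of the members. The log2 fold change was -0.27 (95% interval -0.83 to 0.30, exact permutation p = 0.420), so changes of moderate size in either direction could not be detected. Single livers moved this value widely. It was -0.11 without saline replicate 49 (exact permutation p = 0.747), -0.15 without saline replicate 51 and -0.14 without LNA29 replicate 52. It was -0.45 without saline replicate 45 and -0.41 without LNA29 replicate 48.

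Per kilobase of the longest coding transcript, Akr1c6 had the highest mean in saline livers (7137 ± 2862 per kb), though it was above Hsd17b13 in only 2 of 6, followed by Hsd17b13 (6935 ± 481 per kb), Hsd17b6 (6177 ± 2632 per kb) and Hsd11b1 (5989 ± 1496 per kb). The ranges of neighbours among these 4 overlapped, so their order is not fixed by the data. Hsd3b3 came next at 1806 ± 317 per kb, below every value of Hsd11b1, and then Akr1d1 at 1021 ± 402 per kb. The level of Akr1c14 was 432 ± 255 per kb, with a range that overlapped Srd5a1 at 282 ± 63.8 per kb. The ranges of Hsd3b3 and Akr1d1 also overlapped, as did those of Akr1d1 and Akr1c14. Within each of the 6 livers, though, Hsd3b3 was above Akr1d1 and Akr1d1 above Akr1c14. Hsd3b2 was far lower than these at 47.6 ± 11.8 per kb.

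In LNA29 livers Hsd17b13 stood alone at the top with 12280 ± 3301 per kb, and its lowest liver lay above the highest liver of Hsd17b6 (4967 ± 1690 per kb), the next member. Akr1c6 was at 4137 ± 1164 per kb, with a range that overlapped that of Hsd11b1. Akr1d1, at 589 ± 107 per kb, still lay above every value of Srd5a1. These levels depend on which transcript a liver uses, which the deposited values do not show.

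The starts of Hsd17b13, Akr1d1 and Akr1c6 are shown because these members had the smallest p-values in the comparison, with differences in opposite directions. Each window holds 250 bases before and 50 after the annotated start (RefSeq, GRCm38.p6), on the strand of the gene. Capitals mark matches on either strand. The letters searched for the TATA motif were TATAAA. For the box bound by NF-Y they were CCAAT. The HNF4 motif was taken as CAAAGTCCA and the HNF1 element, in its short form, as GTTAAT. For STAT5 the letters TTCNNNGAA were used, and for C/EBP factors the letters TTGCNNAA.
Hsd17b13 (chr5:103977339-103977638, minus strand): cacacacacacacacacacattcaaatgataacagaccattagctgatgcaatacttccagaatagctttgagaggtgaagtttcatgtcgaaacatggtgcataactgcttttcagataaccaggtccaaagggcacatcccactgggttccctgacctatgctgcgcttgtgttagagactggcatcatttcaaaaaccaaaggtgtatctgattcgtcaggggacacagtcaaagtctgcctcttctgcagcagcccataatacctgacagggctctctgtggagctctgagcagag
Akr1d1 (chr6:37529923-37530222, plus strand): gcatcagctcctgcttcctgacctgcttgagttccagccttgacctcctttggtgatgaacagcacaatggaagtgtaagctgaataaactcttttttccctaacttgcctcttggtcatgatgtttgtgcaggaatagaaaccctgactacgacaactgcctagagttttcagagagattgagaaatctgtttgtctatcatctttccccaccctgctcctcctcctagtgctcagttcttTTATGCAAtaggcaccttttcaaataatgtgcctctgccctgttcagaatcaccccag
Akr1c6 (chr13:4434093-4434392, plus strand): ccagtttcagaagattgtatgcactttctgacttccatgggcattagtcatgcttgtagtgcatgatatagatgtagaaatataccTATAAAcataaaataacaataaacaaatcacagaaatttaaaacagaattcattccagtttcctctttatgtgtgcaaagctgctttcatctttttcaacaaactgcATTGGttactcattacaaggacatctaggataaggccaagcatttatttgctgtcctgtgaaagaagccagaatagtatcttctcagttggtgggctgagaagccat
The window of Hsd17b13 held none of these 6 motifs. That of Akr1d1 held 1 C/EBP match at position -8 from the start, a motif present in 10.8% of 32851 promoter windows of this length. That of Akr1c6 held a TATA match at position -164 and an NF-Y match at position -57, motifs present in 13.6% and 37.4% of windows. None of the printed matches overlap. Over all 10 members the NF-Y motif was found in 6, and the HNF4 motif in Hsd3b3 alone, against 0.475% of all windows. The HNF1 element (7.10% of all windows) and the STAT5 motif (8.30%) were in no window of the members.

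Sites with the complement of the miR-29 seed, TGGTGCT, were found in the longest annotated 3′ UTR of 2 of the 10 members, Akr1d1 and Srd5a1, and in 15.6% of 11095 tested genes. They are printed, with the complement in capitals, because these are the members with a possible direct match to the inhibited miRNAs (GENCODE M21, GRCm38).
Akr1d1 (chr6:37567556-37567562, plus strand, in the 3′ UTR): ggcacagttccTGGTGCTgaccatgacca
Srd5a1 (chr13:69573704-69573710, minus strand, in the 3′ UTR): tttggagggcaTGGTGCTaaagttggaac
Akr1d1 had a lower mean in LNA29 livers and Srd5a1 a log2 fold change of 0.02. Hsd17b13, the member that was higher, had no match in its 3′ UTR of 744 bases. Whether these matches bind miR-29 was not tested.

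Members varied together in some pairs and not in others. Over 12 livers, after removal of the group means, the median Pearson r of 36 pairs was 0.10, with a range of -0.41 to 0.86 and 23 pairs above 0. Akr1c14 and Akr1d1 were most alike (r = 0.86), both highest in saline replicates 43 and 49. Akr1c6 went with Hsd3b3 (r = 0.68), and Hsd3b3 with Hsd17b6 (r = 0.63). Hsd17b13 had an r below 0 with Akr1c6, Akr1c14, Akr1d1 and Srd5a1, between -0.41 and -0.30. These values are a description, and livers share library depth and composition across all genes.

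**Figure D4:**
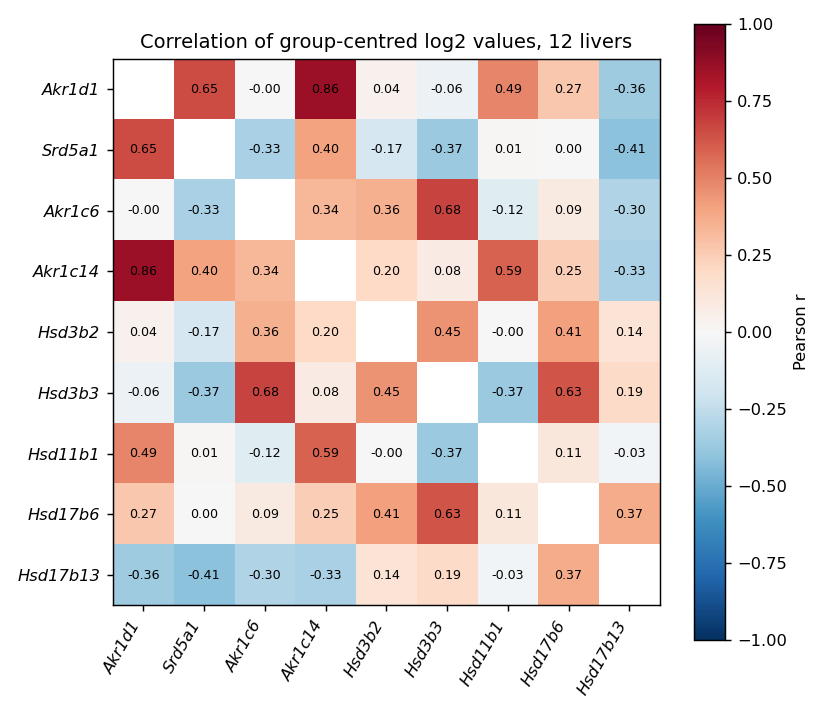
Pearson r of group-centred log2(value + 1) for each pair of the 9 tested members over 12 livers, from -1 (blue) to 1 (red). The darkest red cell is Akr1c14 with Akr1d1 at 0.86, and the lowest value is Hsd17b13 with Srd5a1 at -0.41.

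Among all other tested genes, the one most like each well-expressed member over the same 12 livers was taken. Akr1d1 was most like Dlc1 (r = 0.96), Akr1c14 most like Mfsd1 (r = 0.92), Hsd11b1 most like Cyp2f2 (r = 0.91) and Hsd17b13 most like Suclg1 (r = 0.90). Because group means were removed, this likeness concerns only the variation within groups. Between groups, Dlc1, Mfsd1, Cyp2f2 and Suclg1 had log2 fold changes of -0.16, -0.18, -0.48 and -0.02. The closest genes to Akr1c6 (Cklf) and to Hsd17b6 (Zbtb26) had at most 5 reads per liver, and that of Hsd3b3 (Pmepa1) at most 15, where counting noise is large. Each r is the highest over all tested genes outside the members, and is a selected value.

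Other enzymes of the same kind were described from a list of 32, of which 31 were in the table (Hsd17b8 was not) and 20 were tested. At an unadjusted p under 0.05, 6 of the 20 were lower and none was higher, beside 5.97% and 1.95% of all tested genes. None passed the adjusted threshold in limma. A lower mean was found in 16 of the 20, beside 61.4% of all tested genes, and the median log2 fold change was -0.23. With TMM scaling, 14 had a lower mean and the median was -0.18. Of the Akr1c paralogs, Akr1c20 went from 1475 ± 494 to 767 ± 188 (log2 fold change -0.92, exact permutation p = 0.00433, limma adjusted p = 0.132) and Akr1c19 from 533 ± 113 to 353 ± 177 (log2 fold change -0.69, exact permutation p = 0.0390). Akr1c12 and Akr1c13 had log2 fold changes of -0.32 and -0.22, with limma unadjusted p of 0.110 and 0.145. Akr1c18 and Akr1c21 had at most 1 read in any liver. For Nsdhl, a sterol dehydrogenase of cholesterol synthesis with 2 to 25 reads per liver, it was -1.19 (exact permutation p = 0.00433). Hsd3b7, the 3β-dehydrogenase of bile acid synthesis, went from 10336 ± 1520 to 8174 ± 1332 (log2 fold change -0.34, exact permutation p = 0.0195).

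**Figure D5:**
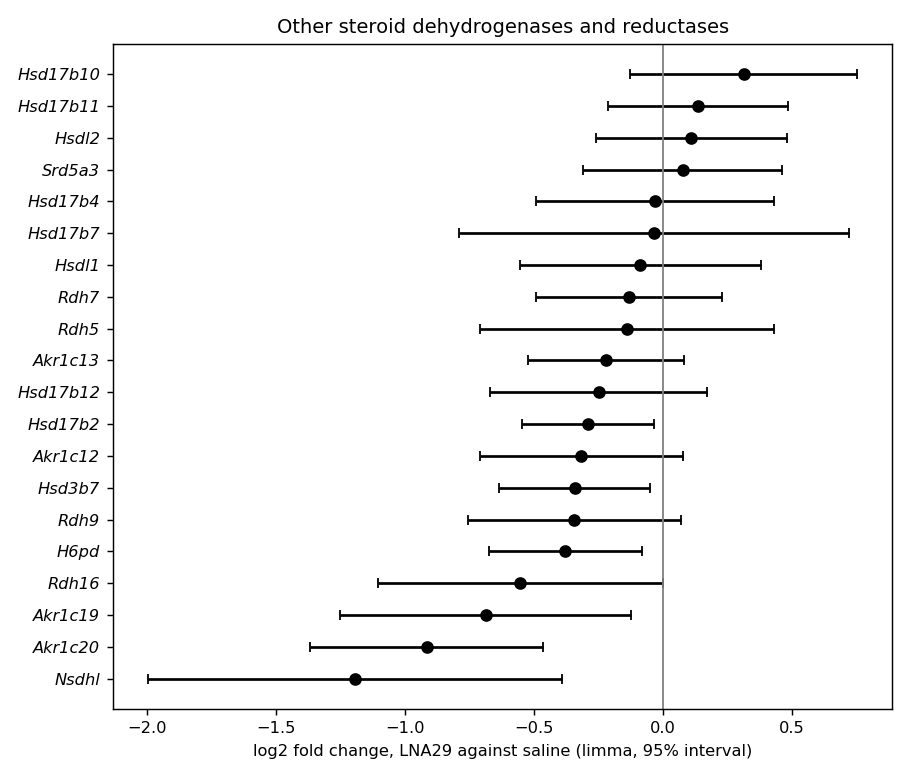
Log2 fold change of LNA29 against saline livers for the 20 tested steroid dehydrogenases and reductases outside the 10 members (points, limma on log2(value + 1)) with 95% intervals. Of the points, 16 lie below 0, and Nsdhl (-1.19) and Akr1c20 (-0.92) are the lowest.

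Genes of neighbouring pathways were described in the same way. Of 13 bile acid synthesis genes, 1 was lower at an unadjusted p under 0.05, beside 5.97% of all tested genes. It was Hsd3b7, which is also among the other dehydrogenases above. A lower mean was found in 11, beside 61.4% of all tested genes, and the median log2 fold change was -0.14. With TMM scaling, 8 had a lower mean and the median was -0.08. Cyp46a1, a cholesterol hydroxylase, had a log2 fold change of -0.51 with 4 to 35 reads per liver (exact permutation p = 0.0563). Of 7 tested steroid receptors and carriers, 1 was higher and 2 were lower at an unadjusted p under 0.05, with a median of -0.59. Over all tested genes, 1.95% were higher and 5.97% lower at this threshold. Serpina6, which encodes the corticosteroid carrier of plasma, went from 4438 ± 1627 to 2699 ± 2437 (log2 fold change -0.93, exact permutation p = 0.0584). Nr3c2, the mineralocorticoid receptor, was lower with 1 to 6 reads in saline livers and 0 to 2 in LNA29 livers (exact permutation p = 0.0368). The higher gene was Hsp90ab1, a chaperone of these receptors named here after its values were seen, with a log2 fold change of 0.32 (exact permutation p = 0.00866, limma adjusted p = 0.608). For Nr3c1, the glucocorticoid receptor, the fold change was -0.59 on the log2 scale (exact permutation p = 0.206). Among 14 genes that glucocorticoids induce in liver, 12 had a higher mean (median 0.25) where 61.4% of all tested genes had a lower one, none was higher at an unadjusted p under 0.05, and Lcn2 was lower at this threshold (log2 fold change -1.33, exact permutation p = 0.0974). For Sgk1 the log2 difference was 0.52 (exact permutation p = 0.162).

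Genes known to differ between the sexes were described because Hsd3b5 is one of them. Of 16 tested male-biased genes, 4 were higher at an unadjusted p under 0.05 and none lower, beside 1.95% and 5.97% of all tested genes. The means of this list were evenly split, with 8 higher and 8 lower and a median of 0.14. Serpina1e, a protease inhibitor gene with close paralogs whose level is therefore uncertain, differed by 2.33 on the log2 scale (exact permutation p = 0.0108). Cyp4a12a had 0 to 2 reads in saline livers and 1 to 6 in LNA29 livers (exact permutation p = 0.00433). The other two were Mup20 (log2 fold change 0.63) and C8b (0.48), named after their values were seen. Of 18 female-biased genes, 6 were lower and none higher at the same threshold. A lower mean was found in 14, beside 61.4% of all tested genes, and the median log2 fold change was -0.51. Acot3 alone passed the adjusted threshold (log2 fold change -1.32, limma adjusted p = 0.0224), and its groups did not overlap. For Cyp2b13 the log2 difference was -0.99 (exact permutation p = 0.0130). Of 11 genes listed as regulators of sex bias, 1 was higher and 1 lower at an unadjusted p under 0.05, beside 1.95% and 5.97% of all tested genes. A lower mean was found in 7, beside 61.4% of all tested genes, and their median was -0.17. The lower gene was the growth hormone receptor gene Ghr (log2 difference -0.59, exact permutation p = 0.0152, limma adjusted p = 0.347). The higher gene was Igf1, its target in liver (log2 difference 0.43, exact permutation p = 0.0216, limma adjusted p = 0.455).

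Markers of other cell types were read beside these values. Of 9 markers of adrenal and gonad steroid synthesis, 8 had at most 3 reads in every liver, among them Cyp11a1, Cyp11b1 and Cyp11b2 at 0, and Star had at most 6. The summed level of 7 hepatocyte markers ranged over 33343663 to 112279941 in the saline group, lowest in replicate 49, and over 81267008 to 96708293 in the LNA29 group. Most of this sum was albumin, at 29304000 of 33343663 in saline replicate 49, so it largely repeats the albumin level. The 8 stellate markers summed to between 16880 and 23825 in saline and between 17214 and 22041 in LNA29 livers, and the 8 endothelial markers to between 5333 and 7110 and between 4509 and 6521. The 8 Kupffer cell markers summed to between 7859 and 11794 and between 6857 and 15986. Of these 8, 7 had a lower mean, beside 61.4% of all tested genes, and the median log2 fold change was -0.23. The 1 with a higher mean was Marco (log2 fold change 1.08, exact permutation p = 0.0368, limma adjusted p = 0.391). Its highest value, 3425, was that of LNA29 replicate 54. For Vsig4 the log2 fold change was -0.52 (exact permutation p = 0.173). The 6 bile duct markers summed to between 603 and 906 and between 439 and 1170, and 7 blood cell markers to between 2461 and 6566 and between 3018 and 18090. The part of these markers in the members' differences was not tested.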

How the data were processed

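RNA of 12 mouse livers was sequenced after TruSeq polyA selection. The authors mapped the reads with MapSplice2 and estimated reads per gene with RSEM (mm9 in the submitters' processing notes, with versions and annotation not given in the sources used here). The deposited signal values are these estimates divided by the upper quartile of detected genes and multiplied by 1000, as the authors scaled them. The table also holds the authors' group means, fold changes and p-values, which were not used, and 3 unnamed columns that were not used.

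One table of 21705 genes was read. The value of 1 read in each library was taken from the most frequent value above 1, and between 92.0% and 93.6% of values were whole multiples of it within 0.02. Depth is the sum of the values in these steps, and intervals cover the spread between livers only.

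limma 3.58.1 (R 4.3.3) with a mean-variance trend was fitted to log2(value + 1) over 12486 genes whose mean reached 10, as 2 unpaired groups of 6 without covariates, with Benjamini-Hochberg adjustment at 0.05. Fold changes are on the log2(value + 1) scale. For genes with few reads they can differ from the ratio of the group means in either direction. Single genes were also compared by a two-sided exact permutation test over 924 divisions. The limma fit was tested on simulated data. Correlations used log2 values minus their group mean. Sites, lengths and shared windows came from GENCODE M21 and promoters and miRNAs from RefSeq, both GRCm38 and not the build of the authors, and all 10 members matched in both. Python 3.11.15, numpy 2.4.6, scipy 1.17.1, pandas 2.3.3 and matplotlib 3.10.9 were used.

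The members and the gene lists were chosen with earlier results of these data known. All 10 members are named. Genes of the lists are named where the adjusted p was under 0.05, or where the groups did not overlap at an unadjusted p under 0.05. They are also named where their unadjusted p was among the 2 smallest of the list, or where they partner a member. Others check the treatment or define a cell type. Hsp90ab1, Mup20 and C8b met none of these rules and were named after their values were seen. Of the listed genes, Hsd17b8, Cyp3a41a, Tf and Hba-a1 were not used here. Alternatives were pseudocounts of 0.1 and 10, no filter or a mean of at least 100, a common median, TMM scaling, array weights, a robust fit, omission of values beyond 1.5 SD of the group mean, and omission of each liver.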

Additional observations from a re-analysis of the deposited data

How the results depend on the processing

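The log2 fold changes of Hsd17b13 (0.64 to 0.89), Akr1c6 (-0.87 to -0.59) and Akr1d1 (-0.85 to -0.55) kept their direction and an unadjusted p under 0.05 in all 21 alternatives. The adjusted p of Hsd17b13 was under 0.05 with array weights (0.0376), with values beyond 1.5 SD left out (0.0322) and without LNA29 replicate 52 (0.0470). It was therefore the 1 member called in each of these, against 0 otherwise and 0 to 1 over the omissions of a liver. At an unadjusted p under 0.05, 3 members were lower without a filter, with a mean of at least 100 and with TMM scaling, and 2 to 5 when 1 liver was left out, against 5. The count was 2 without saline replicate 43 or 49 and without LNA29 replicate 52, and 3 without LNA29 replicate 46, 50 or 54. Akr1c14 lost this threshold in 10 alternatives, Hsd3b2 in 6 and Hsd3b3 in 15, while Hsd11b1 passed it in 2. Srd5a1 ranged from -0.0878 to 0.1253 over the omissions of a liver and changed sign in 6 of them. Over all genes, 20 were called, 5 without a filter, 10 with a common median, 58 with array weights, 217 with values beyond 1.5 SD left out, and 1 to 29 when 1 liver was left out (1 without saline replicate 43, LNA29 replicate 50 or LNA29 replicate 54, 3 without saline replicate 51, 7 without saline replicate 53, 9 without LNA29 replicate 46, 10 without LNA29 replicate 52 and 11 without saline replicate 47). The median over all tested genes was -0.09, and -0.05 with a common median. No list of genes changed the sign of its median with a common median or with TMM scaling. With each of these, 8 rather than 11 of the 13 bile acid synthesis genes had a lower mean. Among the 20 other dehydrogenases and reductases it was 14 rather than 16. The causes were not tested.

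The planned count tests on recovered reads were not run, because not all values could be read as whole reads. No paired analysis was possible because the livers of the groups carry different numbers. Depth limits Hsd3b2 and Hsd3b5 most. No member had a liver that stood apart from its group by Dixon's ratio in 18 groups of 6. This ratio uses the gap to the nearest liver, so a pair of extreme livers can hide each other. The saline groups of Akr1c6, Akr1c14 and Akr1d1 each held such a pair of high livers.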
